A study of Homo sapiens with 40 samples.

Results

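The sestrins SESN1, SESN2 and SESN3 and the REDD genes DDIT4 (REDD1) and DDIT4L (REDD2) encode stress-induced proteins that restrain mTORC1, the kinase complex that couples nutrients and growth factors to protein synthesis. All probe sets on the array whose only gene symbol was one of these 5 names were taken, 12 of the 54675 probe sets and 5 of the 19775 genes with a symbol of their own. The members were selected on their known role and on measured values. The fall of SESN3 with BEZ235 against DMSO in these arrays, despite its link to FOXO transcription factors, was seen when the set was put together. Every difference between a BEZ235 level and DMSO is therefore given as a description with no test, and SESN3 was tested in no comparison that contains BEZ235 arrays. Of the 5 genes, 4 passed the filter on low signal, and DDIT4L did not.

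The study used A2058 cells, an established human melanoma line, treated once for 24 hours with DMSO or with an inhibitor of PI3K, the lipid kinase whose product recruits AKT to the membrane, upstream of mTORC1. The compounds were BKM120 and GDC0941, which inhibit the class I PI3K enzymes, and BEZ235, which inhibits PI3K and also the mTOR kinase itself. The levels of BKM120 are named IC30, IC50 and IC90 (max) here, and those of BEZ235 and GDC0941 were labelled IC50, IC90 and max. The array titles of the highest BKM120 level say only max, and it was compared as the IC90 of BKM120. The sources used here do not give molar doses or the response behind the IC values, so a shared level name is the only match between compounds. Each of the 10 groups held 4 arrays labelled as biological replicates. All groups share this line and medium with serum, so the p-values measure the spread between cultures of 1 line.

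Sestrins act on the nutrient arm of mTORC1 control. SESN2 binds leucine and the GATOR2 complex, which opposes GATOR1, the complex that switches off the Rag GTPases on the lysosome, and sestrins also activate the kinase AMPK. REDD1 acts on the growth factor arm, through the TSC complex that switches off RHEB, the GTPase that activates mTORC1. Their genes are known targets of stress-responsive transcription factors: SESN1 and SESN2 of p53, SESN1 and SESN3 of FOXO factors, which AKT keeps out of the nucleus, SESN2 and DDIT4 of ATF4, and DDIT4 also of the hypoxia factor HIF-1 and the glucocorticoid receptor.

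Each array had been scaled so that its trimmed mean was 150, and the median signal of an array lay between 11.6 and 15.7 in 39 of the 40. The array of BEZ235 IC50 replicate 3 stood apart: its log2 difference between the 3′ and 5′ probe sets was 4.65 for beta-actin and 1.77 for GAPDH, against 0.66 to 1.21 and 0.07 to 0.34 in the other 39, and its median signal was 11.1. Values of BEZ235 IC50 are given with and without it. The 7 melanoma and melanocyte markers measured (MLANA, PMEL, TYR, TYRP1, MITF, SOX10 and S100B) passed the filter, with group means from 127.9 to 2410. Of 12 markers of other cell types 5 passed: KRT10, at up to 1037, and LUM, at up to 1498, were high, while KRT14, DCN and PECAM1 stayed under 56, and the leukocyte genes PTPRC, CD3E and CD14 stayed at or under 5.1. In bulk RNA a change in the share of cells in a given state and a change in RNA per cell cannot be told apart.

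The genes lie on 5 chromosomes. In RefSeq's table for GRCh38.p14, SESN1 spans chr6:108984309-109094846, SESN2 chr1:28259518-28282491, SESN3 chr11:95165513-95232475, DDIT4 chr10:72273924-72276036 and DDIT4L chr4:100185870-100190468. All 5 matched RefSeq's promoter table of the same build, SESN1 with 3 starts and the others with 1 each. The 250 bases just before the start, read on the gene's own strand, are printed for the 3 sestrin genes, all of which fell at the highest BKM120 level, and for DDIT4, which did not pass the test there. They are chr6:109094847-109095096 (minus strand, the start of SESN1 farthest upstream), chr1:28259268-28259517 (plus), chr11:95232476-95232725 (minus) and chr10:72273674-72273923 (plus), and capitals mark the only motif match.
SESN1: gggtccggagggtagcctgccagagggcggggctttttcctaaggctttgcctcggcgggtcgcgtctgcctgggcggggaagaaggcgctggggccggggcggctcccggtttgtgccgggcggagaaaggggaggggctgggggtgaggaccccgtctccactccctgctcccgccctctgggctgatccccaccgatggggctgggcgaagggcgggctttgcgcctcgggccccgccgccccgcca
SESN2: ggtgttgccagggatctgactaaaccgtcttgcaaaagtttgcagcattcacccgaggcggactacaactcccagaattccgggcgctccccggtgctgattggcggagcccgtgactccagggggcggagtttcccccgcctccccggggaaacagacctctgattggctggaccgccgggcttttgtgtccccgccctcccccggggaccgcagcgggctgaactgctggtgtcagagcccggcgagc
SESN3: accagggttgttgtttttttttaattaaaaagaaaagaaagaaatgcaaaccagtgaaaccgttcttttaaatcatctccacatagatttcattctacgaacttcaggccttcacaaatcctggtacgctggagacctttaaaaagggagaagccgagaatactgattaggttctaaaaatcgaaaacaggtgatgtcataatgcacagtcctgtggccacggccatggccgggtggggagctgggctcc
DDIT4: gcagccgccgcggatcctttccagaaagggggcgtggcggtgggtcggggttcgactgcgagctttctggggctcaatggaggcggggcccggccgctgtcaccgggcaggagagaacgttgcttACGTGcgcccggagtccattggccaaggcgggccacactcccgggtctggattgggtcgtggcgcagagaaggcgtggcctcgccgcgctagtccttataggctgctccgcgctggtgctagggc

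Motifs were looked for on both strands in the 250 bases before and 50 after each start. They were the FOXO site GTAAACA, the ATF4 and C/EBP composite TGATGNAA, the hypoxia core ACGTG and the E-box CACGTG, which contains the hypoxia core. DDIT4 held 1 hypoxia core, whose first base lies 125 bases before the start; such a match occurred in 21.4% of the 35116 windows of this length in the table. No other match was found in the 7 windows of the members, where the FOXO letters occurred in 3.42% of all windows, the ATF4 composite in 3.62% and the E-box in 7.26%. The window of SESN3 was 45.0% G and C, below the median of 58.7% over all windows, while SESN2 stood at 67.0%, DDIT4 at 69.7% and the printed start of SESN1 at 75.0%. A match or its absence describes these letters in this window.

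In DMSO, the probe set used for SESN3 (225123_at) read 583.9, 744.8, 716.3 and 628.8. With BKM120 it rose at the lower levels, to 885.1, 839.9, 890.4 and 878.2 at IC30 and to 937.9, 876.5, 862.7 and 934.7 at IC50, and fell at IC90 (max), to 481.4, 529.9, 485.4 and 492. All 4 arrays of each BKM120 level lay outside the range of DMSO, above it at the 2 lower levels and below it at the highest. The log2 differences, on the log2(signal + 16) scale used throughout, which understates the change of dim genes, were 0.38 (SE 0.08, limma adjusted p = 8.07e-04), 0.43 (adjusted p = 2.16e-04) and -0.41 (adjusted p = 1.73e-04).

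SESN1, which encodes the sestrin best known as a p53 target, moved the same way with BKM120. Its signal (218346_s_at) was 84.5, 81.4, 70.6 and 75.1 in DMSO and 105.6, 89.4, 102.3 and 98.5 at BKM120 IC30, all above DMSO. At IC90 (max) it was 53.8, 58.8, 45.3 and 52.5, all below DMSO. The log2 differences were 0.29 (95% interval 0.12 to 0.47, limma adjusted p = 0.0118) and -0.45 (-0.63 to -0.28, adjusted p = 6.04e-05). At IC50 the 4 values, 85.2, 87.3, 103.2 and 97.7, were also above all 4 of DMSO, and the difference of 0.22 had an adjusted p of 0.0659 (0.0395 without the degraded array).

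SESN2, the leucine-binding sestrin, showed no such rise. It read 59.3, 49.8, 59.3 and 51.3 in DMSO, 40.7, 51.8, 50 and 41.4 at BKM120 IC30 and 47.1, 51.1, 46 and 46.5 at IC50, with ranges that overlapped DMSO. At IC90 (max) it fell to 34.4, 26.3, 29.7 and 27.2. The differences were -0.20 and -0.15 (limma adjusted p = 0.133 and 0.261) and then -0.64 (SE 0.09, adjusted p = 7.22e-07).

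DDIT4 was bright and nearly level. It read 2186, 1911.8, 2362.6 and 2211.4 in DMSO and stayed between 2026.5 and 2338.3 in the 12 BKM120 arrays. Its differences from DMSO were 0.05, -0.02 and -0.02 at the 3 levels, with 95% intervals of -0.08 to 0.17, -0.14 to 0.11 and -0.14 to 0.11, so a change beyond those bounds was not detected. DDIT4L read between 0.1 and 7 in all 40 arrays, with 46713 probe sets brighter, and its probe set (228057_at) gave no level above that of the dimmest features.

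Against DMSO, 2 of the 4 measured genes rose at BKM120 IC30, 1 rose at IC50 and 3 fell at IC90 (max). Over all 11865 genes tested, 13.1% rose and 8.17% fell at IC30, 12.5% rose and 7.34% fell at IC50, and 17.3% rose and 17.3% fell at IC90 (max). The median difference of the 4 genes was 0.17, 0.10 and -0.43 at the 3 levels, where the median over all genes was 0.02, 0.03 and 0.00 (-0.00398).

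**Figure D1:**
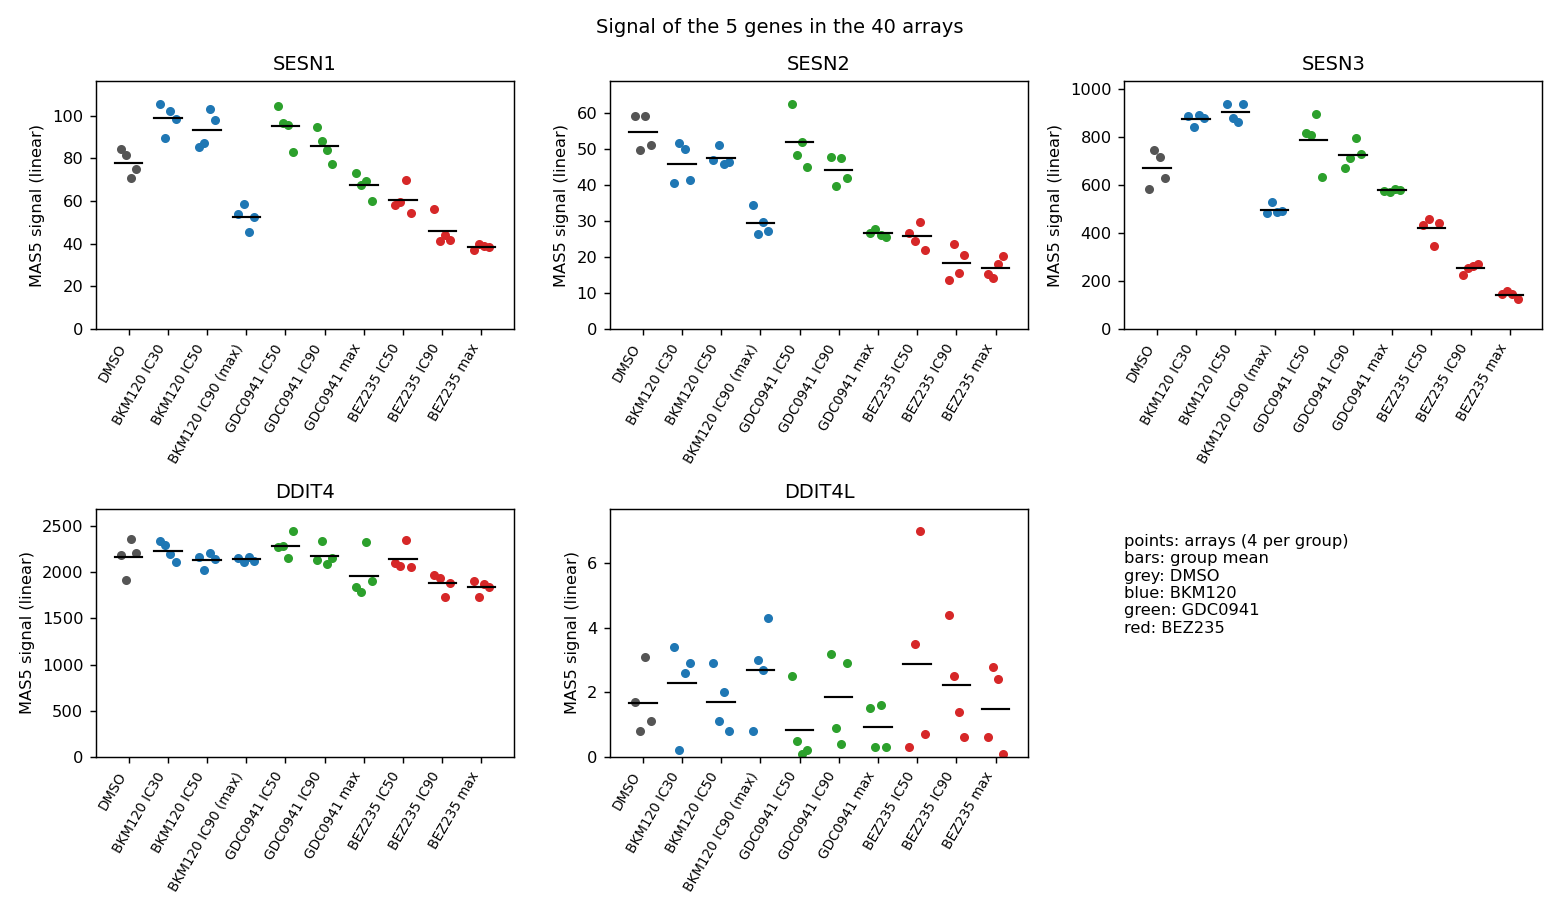
Linear MAS5 signal (vertical axis, starting at 0) of SESN1, SESN2, SESN3, DDIT4 and DDIT4L in the 10 groups (horizontal axis), with 1 point per array, 4 per group, and a bar at the group mean. SESN3 lies between 839.9 and 937.9 at the 2 lower BKM120 levels and between 125.8 and 156.6 at BEZ235 max, while DDIT4 stays between 1733 and 2443.9 in every array.

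With GDC0941, SESN3 read 815.8, 808.5, 893.1 and 633.9 at IC50, 669.9, 711.7, 793.3 and 728.6 at IC90 and 575.6, 569.6, 584.5 and 577.2 at max. Its ranges at all 3 levels overlapped DMSO, at max only through a value of 584.5 against the lowest DMSO value of 583.9. The differences were 0.23 (limma adjusted p = 0.0572), 0.12 (adjusted p = 0.32) and -0.20 (adjusted p = 0.0484). The first lay just short of the threshold, and the 8 fits that each left out 1 array of these 2 groups gave 0.16 to 0.33, with limma adjusted p up to 0.226. It passed the threshold without the degraded array of another group (adjusted p = 0.0197), with quantile normalization (0.0484), a constant of 64 (0.0478) or the mean over probe sets (0.0197), and without any of DMSO replicate 2 (0.0294), DMSO replicate 3 (0.0467) and GDC0941 IC50 replicate 4, its lowest array (0.33, adjusted p = 0.00451). The last lay just past the threshold and lost it when any of 6 single arrays was left out, with adjusted p up to 0.186 (without DMSO replicate 2), and also with the replicate number as a block (0.0512), quantile normalization (0.0585), a constant of 1 (0.0516), no variance trend (0.0532) or no filter (0.0714).

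SESN1 read 104.7, 96.6, 95.7 and 83 at GDC0941 IC50, 94.7, 87.9, 83.7 and 77.1 at IC90 and 73.2, 67.4, 69.3 and 60.1 at max. The rise at IC50, 0.24, had a limma adjusted p of 0.0495, with 1 array inside the range of DMSO, and lost the threshold without any of 6 single arrays (adjusted p up to 0.148, without GDC0941 IC50 replicate 1), with only the groups compared in the fit (0.077), with a constant of 1 (0.0628) and with no filter (0.0927). At IC90 and max the differences were 0.12 and -0.17 (adjusted p = 0.351 and 0.108).

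SESN2 had the largest fall of the 4 genes at the top level of GDC0941, by the 1 probe set used for each gene. It read 62.7, 48.5, 52 and 45.2 at IC50, 47.9, 39.9, 47.5 and 42 at IC90 and 26.7, 27.8, 26.2 and 25.7 at max. Every array at IC90 and at max lay below every DMSO array. The differences were -0.06, -0.23 and -0.73, with limma adjusted p of 0.709, 0.0599 and 3.49e-08, and the middle one passed with 39 arrays (adjusted p = 0.0442).

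DDIT4 with GDC0941 again overlapped DMSO at every level. It read 2276.3, 2284.9, 2149.8 and 2443.9 at IC50 and between 2093.9 and 2338.4 at IC90. At max 3 arrays read 1837.3, 1788.3 and 1904.8 and replicate 3 read 2323.3. The difference at max was -0.15 (95% interval -0.27 to -0.02, limma adjusted p = 0.0554), and without that replicate -0.23 (adjusted p = 0.00139). It also passed the threshold without DMSO replicate 2 (-0.20, adjusted p = 0.00868). These were the 2 of 8 fits leaving out a single array of either group that passed, with adjusted p up to 0.215 in the others. Without the degraded array of another group it passed too (adjusted p = 0.0358), as it did with quantile normalization (-0.20, adjusted p = 2.8e-05).

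For GDC0941 against DMSO, 1 of the 4 genes rose at IC50, none was called at IC90 in limma's test, and 2 fell at max. At IC90, SESN2 was the single gene of the 4 with an unadjusted p below 0.05 (0.016). The shares of all genes that rose and fell were 9.81% and 6.15% at IC50, 15.2% and 9.97% at IC90 and 25.5% and 18.4% at max.

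**Figure D2:**
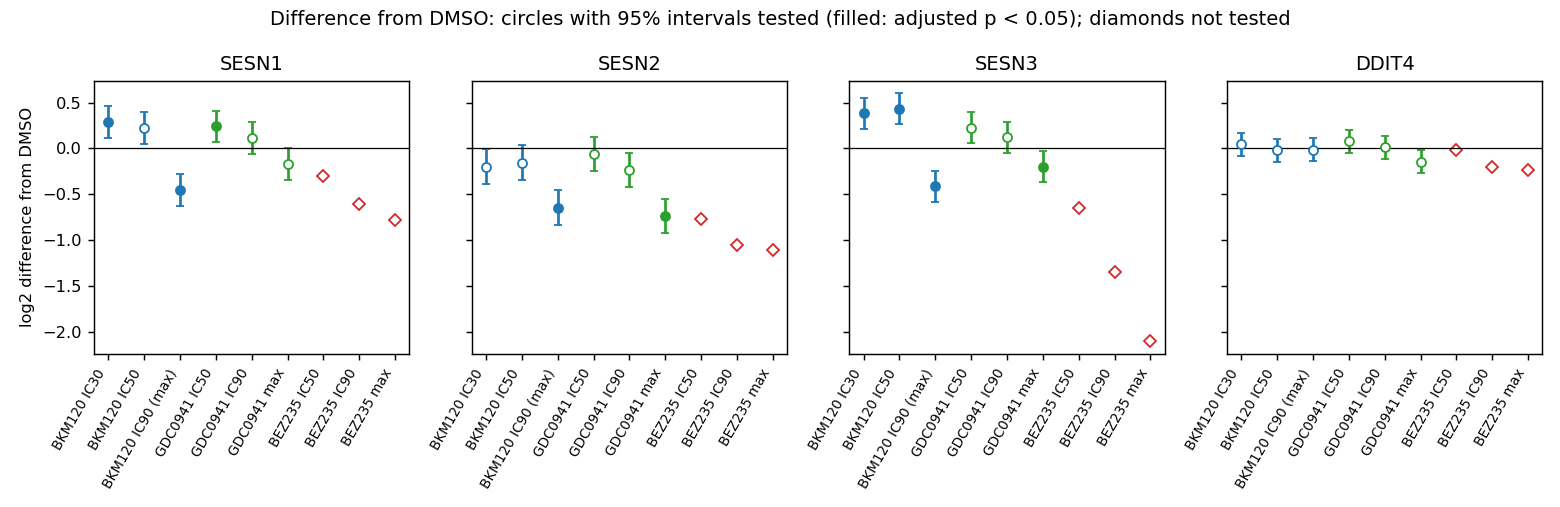
Difference from DMSO in log2(signal + 16) (vertical axis) for SESN1, SESN2, SESN3 and DDIT4 at the 9 treatments (horizontal axis). Circles with 95% intervals were tested, filled where the adjusted p was under 0.05, and the BEZ235 diamonds are descriptions with no test; SESN1 and SESN3 lie above 0 at the 2 lower BKM120 levels, and SESN3 reaches -2.10 at BEZ235 max.

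With BEZ235 the mean signal of all 3 sestrins was lower at each next level, which for SESN3 belongs to the values the choice of members used. SESN3 read 434.6, 456.4, 344.7 and 443.2 at IC50, 226.7, 255.1, 260.4 and 271 at IC90 and 144.7, 156.6, 145.7 and 125.8 at max. No array of one BEZ235 level overlapped another level or DMSO. The differences from DMSO were -0.65, -1.34 and -2.10, and the mean signal at max differed from that in DMSO by -78.6%. Without the degraded array, the 344.7 at IC50, the first of these was -0.56.

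SESN1 read 57.9, 59.3, 69.8 and 54.5 at BEZ235 IC50, 56.3, 41.3, 43.9 and 41.6 at IC90 and 37.2, 39.8, 39.1 and 38.5 at max. Its differences from DMSO were -0.30, -0.61 and -0.78, the first -0.36 without the degraded array, which read 69.8. The values at IC90 and max were -0.76 and -0.99 with a constant of 1 added before the logarithm, and -0.37 and -0.47 with 64. SESN2 read 26.8, 24.4, 29.8 and 22 at IC50, 13.6, 23.7, 15.6 and 20.7 at IC90 and 15.3, 14.3, 18.2 and 20.3 at max. The last values approach the median signal of an array, so the differences of -0.77 (-0.81 without the degraded array), -1.05 and -1.10 depend on that constant too, and at max the value was -1.64 with 1 and -0.55 with 64.

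DDIT4 read 2096.1, 2069.2, 2346.6 and 2052 at BEZ235 IC50, 1967.2, 1934.7, 1735.2 and 1879 at IC90 and 1907.7, 1733, 1873.9 and 1843.5 at max. Its differences from DMSO were -0.02 (-0.06 without the degraded array, which read 2346.6, and -0.17 with quantile normalization), -0.20 and -0.23. At max all 4 arrays lay below all 4 of DMSO, by as little as 1907.7 against 1911.8. All 4 arrays lay below all 4 of DMSO for 3 of the 4 genes at IC50, 3 at IC90 and 4 at max. That held for 12.6%, 23.9% and 24.5% of all genes tested, and nothing is read from the members' count, since the contrast entered their choice. In limma's test 26.3% of all genes rose and 19.2% fell at IC50, 30.8% and 24.1% at IC90, and 32.7% and 25.2% at max.

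Ordered by level, the groups of SESN3 ran from BKM120 IC50 and IC30 through GDC0941 IC50 and IC90, DMSO and GDC0941 max to BKM120 IC90 (max), BEZ235 IC50, BEZ235 IC90 and BEZ235 max. The ranges of neighbours overlapped down to GDC0941 max and did not overlap from there on. For SESN1 only BEZ235 IC90 and BEZ235 max, the last 2 in the order, did not overlap among neighbours. For SESN2 the gap lay between GDC0941 IC90 and BKM120 IC90 (max). For DDIT4 every neighbour in the order overlapped the next.

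A gene can be read by several probe sets, and those of SESN2 and SESN3 did not give the same sizes. SESN3 has 7, of which 225123_at, with a mean of 668.5 in DMSO, is by far the brightest; the others averaged from 2.08 to 46.2. At BKM120 IC30, 3 of the 7 rose in limma's test over all probe sets, where 4.48% of all probe sets did. At IC50 5 rose, beside 4.29% of all, and at IC90 (max) 2 fell, beside 8.85%. The mean differences of the others had the same sign as the called ones at each of these levels. At GDC0941 max the probe set 235683_at fell by 0.95 on the log2 scale (limma adjusted p = 4.25e-07), where 225123_at gave -0.20 (adjusted p = 0.0842 over all probe sets). At BEZ235 max the 7 differences were -2.10 for 225123_at, -1.55 for 235683_at, between -0.77 and -0.42 for 4 dim probe sets and 0.01 for 1553869_at, which read 0.1 to 3 in DMSO.

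SESN2 has 2 probe sets, and they differed at the lower levels. The dimmer one, 223195_s_at with a mean of 18 in DMSO, fell by 0.39 at BKM120 IC30, by 0.42 at IC50 and by 0.45 at GDC0941 IC90 (limma adjusted p = 0.00606, 0.00356 and 9.67e-04). Its mean signals there were 9.90, 9.47 and 8.82, below the median signal of an array, so these differences lie among the dimmest features. The brighter 223196_s_at gave -0.20, -0.15 and -0.23 there and was not called. At BKM120 IC90 (max) and GDC0941 max both fell, beside 8.85% and 10.4% of all probe sets.

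**Figure D3:**
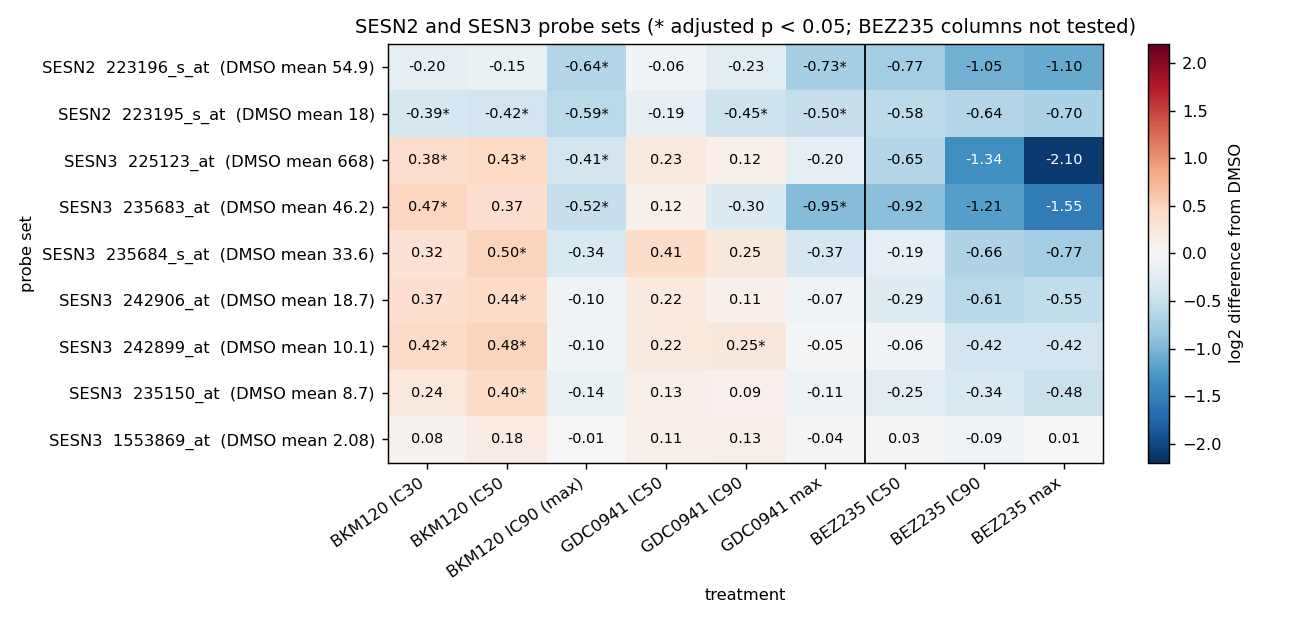
Difference from DMSO in log2(signal + 16), printed in each cell and coloured, for the 2 SESN2 and 7 SESN3 probe sets (rows, with their DMSO mean signal) at the 9 treatments (columns). Stars mark an adjusted p under 0.05 over all probe sets and the BEZ235 columns carry no test; 5 of the 7 SESN3 rows carry a star at BKM120 IC50, and the values at BEZ235 max run from -2.10 to 0.01.

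The compounds were next compared with each other at the same named level, in 7 pairs and 23 tests of a member. Of these, 14 were called, and in each of the 14 the member was lower with BEZ235 than with the other compound, or lower with BKM120 than with GDC0941. Of the 14, 11 came from the 15 tests in pairs with BEZ235, the arrays whose SESN3 values entered the choice of members. SESN1, SESN2 and DDIT4 followed SESN3 over the 10 group means (Pearson's r = 0.944, 0.891 and 0.847). Their calls with BEZ235 are therefore not independent of that choice. At IC50, no member was called in limma's test between BKM120 and GDC0941. Their differences were -0.02 for SESN1 (95% interval -0.19 to 0.15), -0.09 for SESN2 (-0.28 to 0.10), 0.20 for SESN3 (0.03 to 0.37) and -0.10 for DDIT4 (-0.22 to 0.03). Over all genes 0.598% were called in that pair, and SESN3 had an unadjusted p of 0.02 and a limma adjusted p of 0.23.

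BEZ235 differed from both at IC50. SESN1 was lower by 0.54 than with GDC0941 and by 0.52 than with BKM120 (limma adjusted p = 6.97e-06 and 1.82e-05), with all 4 arrays below. SESN2 was lower by 0.70 and 0.61 (adjusted p = 2.99e-07 and 4.78e-06). Without the degraded array the SESN1 values were -0.60 and -0.58 and the SESN2 values -0.75 and -0.66 (adjusted p at most 4.17e-06). DDIT4 differed by -0.10 and 0.00 (0.00253), with intervals of -0.22 to 0.03 and -0.12 to 0.13. Without that array, its highest in the group, the DDIT4 values were -0.14 and -0.04 (adjusted p = 0.0821 and 0.652), and with quantile normalization -0.20 and -0.11 (adjusted p = 4.1e-05 and 0.016). The shares of all genes called were 33.9% and 32.2% in either direction, and 15.7% and 15.5% were lower with BEZ235. SESN3, not tested here, gave -0.88 and -1.08, and -0.79 and -0.995 without the degraded array.

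At IC90, BKM120 (max) stood apart from GDC0941. SESN1 was lower by 0.57, SESN2 by 0.41 and SESN3 by 0.53 (limma adjusted p = 1.68e-06, 6.22e-04 and 4.05e-06), with no overlap between the 4 arrays of each, while DDIT4 differed by -0.03 (95% interval -0.15 to 0.10). Of all genes, 30% were called in this pair in either direction, and 18.3% were lower with BKM120.

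BEZ235 at IC90 was lower than GDC0941 in all 3 genes tested: SESN1 by 0.73, SESN2 by 0.82 and DDIT4 by 0.21 (limma adjusted p = 1.05e-08, 4.27e-09 and 0.00525). Of all genes, 43% were called in this pair in either direction, and 20% were lower with BEZ235. Against BKM120 IC90 (max), SESN2 was lower by 0.41 and DDIT4 by 0.19 (adjusted p = 4.29e-04 and 0.0135). The DDIT4 difference was -0.15 (adjusted p = 0.0676) without BEZ235 IC90 replicate 3. SESN1 differed by -0.15 (interval -0.33 to 0.02, adjusted p = 0.143), and without BEZ235 IC90 replicate 1, its highest array at 56.3, by -0.23 (adjusted p = 0.0309). The share of all genes called was 45.2% in either direction, and 18.5% were lower with BEZ235. At max, BEZ235 was lower than GDC0941 by 0.61 in SESN1 and 0.37 in SESN2 (adjusted p = 4.13e-07 and 0.00149), and DDIT4 differed by -0.09 (interval -0.21 to 0.04). There 36.6% of all genes were called in either direction, and 17.9% were lower with BEZ235.

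**Figure D4:**
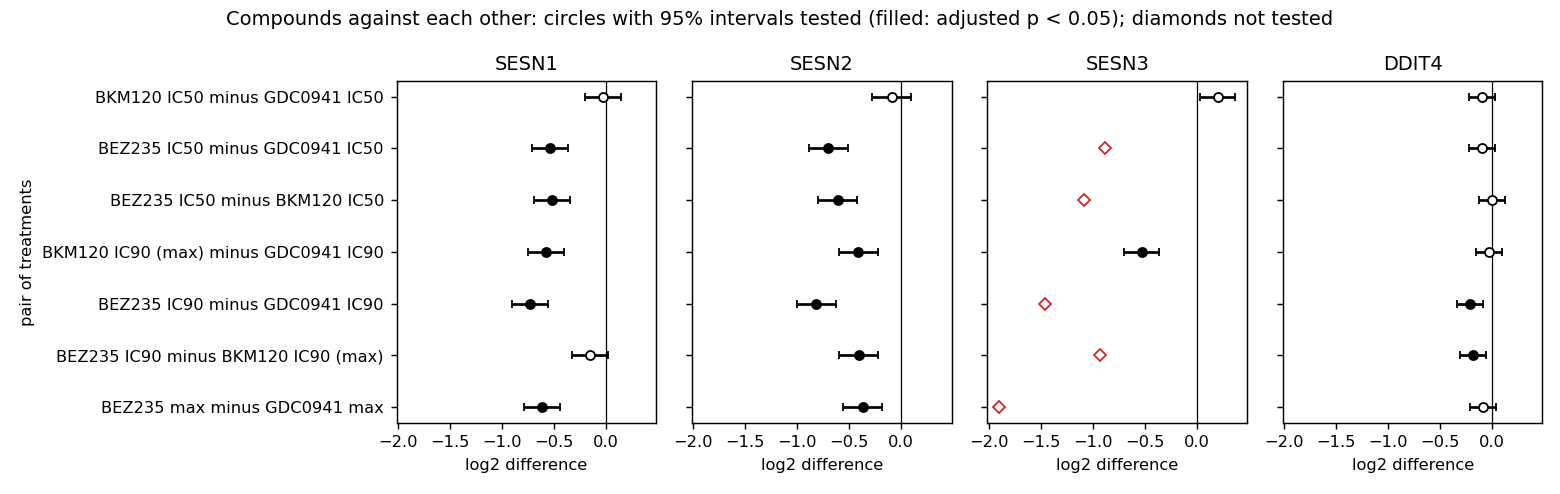
Difference in log2(signal + 16) (horizontal axis) for the 7 pairs of treatments at the same named level (vertical axis) in SESN1, SESN2, SESN3 and DDIT4. Circles carry 95% intervals and are filled where the adjusted p was under 0.05, and diamonds mark SESN3 in pairs with BEZ235, which were not tested; no filled circle lies above 0.

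Between adjacent levels of a compound, 9 of 22 tests of a member were called, all of them falls. Of the 9, 3 came from a BEZ235 step, in arrays whose SESN3 values entered the choice of members. Those 3 are not independent of that choice. The share of all genes called is given beside each step. From BKM120 IC30 to IC50 no member was called in limma's test, with each unadjusted p above 0.05, and 1 gene of all was (0.00843%). From IC50 to IC90 (max) SESN1 fell by 0.67, SESN2 by 0.49 and SESN3 by 0.84 (limma adjusted p = 6.52e-08, 5.75e-05 and 2.86e-10), and DDIT4 gave 0.00 (0.00284). Of all genes, 34.8% were called in either direction in this step, and 21% fell.

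From GDC0941 IC50 to IC90 no member was called in limma's test, with all unadjusted p above 0.05 and 2.21% of all genes called. From IC90 to max SESN1 fell by 0.29, SESN2 by 0.50 and SESN3 by 0.32 (adjusted p = 0.0251, 3.18e-04 and 0.00926), beside 10.5% of all genes called in either direction. The SESN1 call was lost without any of 4 single arrays, GDC0941 IC90 replicate 1 or 2 or max replicate 2 or 4, with adjusted p up to 0.106. DDIT4 gave -0.16 (adjusted p = 0.104), -0.24 (adjusted p = 0.00542) without max replicate 3 and -0.16 (adjusted p = 0.00187) with quantile normalization.

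From BEZ235 IC50 to IC90 SESN1 fell by 0.31, SESN2 by 0.29 and DDIT4 by 0.19 (limma adjusted p = 0.00637, 0.0188 and 0.0227), beside 27.9% of all genes called in either direction and 13.5% that fell. This step uses the degraded array: without it SESN1 gave -0.25 (adjusted p = 0.0301), SESN2 -0.24 (adjusted p = 0.0664) and DDIT4 -0.14 (adjusted p = 0.0944). The calls of SESN2 and DDIT4 were thus lost, as they also were without BEZ235 IC90 replicate 3 (adjusted p = 0.0681 and 0.1), and SESN2 without replicate 1 of that group (0.101). With only these 2 groups in the fit none of the 3 was called (adjusted p = 0.155 for SESN1, 0.198 for SESN2 and 0.129 for DDIT4). SESN3, not tested, gave -0.69, and -0.78 without the degraded array. The calls in this step are not independent of the choice of members. From IC90 to max none of the 3 was called, SESN1 having the lowest unadjusted p of 0.0538, and 2.79% of all genes were. SESN3, not tested, gave -0.76 in that step, where SESN1, SESN2 and DDIT4 gave -0.17, -0.05 and -0.03.

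The step from IC50 to IC90 was also compared between compounds, as an interaction. It was more negative with BKM120 than with GDC0941 by 0.55 in SESN1 (95% interval of the difference -0.79 to -0.30, limma adjusted p = 9.85e-04) and by 0.73 in SESN3 (-0.97 to -0.49, adjusted p = 1.49e-05), beside 19.4% of all genes called. In SESN2 it was more negative by 0.32 (-0.58 to -0.06, adjusted p = 0.0822, and 0.0436 with quantile normalization), and DDIT4 gave 0.07. These contrasts rest on taking BKM120 IC90 (max) as the IC90 of BKM120, and steps to GDC0941 max were not compared with it. Between BEZ235 and GDC0941 none of the 3 genes tested was called, with unadjusted p of 0.133 or more, against 9.81% of all genes, and their adjusted p without the degraded array were 0.531 to 0.788. Between BKM120 and BEZ235 the SESN1 step differed by -0.36 (-0.61 to -0.12, adjusted p = 0.0243), beside 24.6% of all genes, and by -0.42 (adjusted p = 0.00697) without the degraded array. It was not called without BKM120 IC50 replicate 3, BKM120 IC90 (max) replicate 3 or BEZ235 IC90 replicate 1 (adjusted p = 0.0592, 0.0656 and 0.0795), nor with only the 4 groups compared in the fit (0.0983). This contrast uses BEZ235 arrays and is not independent of the choice of members.

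Known targets of the same transcription factors, other than the members, were counted in lists. These lists were written with earlier results of these data known, and their counts are descriptions. Of 12 other FOXO targets, 7, 7 and 10 rose at the 3 BKM120 levels, 7, 9 and 11 at those of GDC0941 and 10, 11 and 11 at those of BEZ235, and 1 or 2 fell. Over all genes the shares that rose were 13.1%, 12.5% and 17.3%, then 9.81%, 15.2% and 25.5%, then 26.3%, 30.8% and 32.7%. The median difference of the 12 targets at BEZ235 max was 0.73, where SESN1 gave -0.78 and SESN3 -2.10. The fall of SESN3 despite its FOXO link entered the choice of members, so nothing is read from this contrast. TXNIP, which encodes an inhibitor of thioredoxin, and KLHL24, a FOXO-responsive gene, rose by 2.31 and 1.94 there (limma adjusted p = 9.76e-29 and 1.13e-19), and FOXO1 itself by 1.06 (adjusted p = 6.29e-13). FOXO1 rose in all 9 treatments, and GADD45A, a gene of the DNA damage response, fell in all 9.

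At the 2 lower BKM120 levels SESN1 and SESN3 had the same sign as the median of the FOXO list. The list's medians were 0.26 at IC30 and 0.28 at IC50, beside 0.38 and 0.43 for SESN3. At IC90 (max) the list's median was 0.37, with TXNIP at 1.65 and KLHL24 at 1.12 (limma adjusted p = 1.7e-23 and 3.83e-12), and SESN1 and SESN3 fell, by 0.45 and 0.41. The part of FOXO factors in these values was not tested.

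Of 12 other ATF4 targets, 7, 10 and 11 fell with BKM120, 7, 12 and 12 with GDC0941 and 10, 11 and 9 with BEZ235. Over all genes the shares that fell were 8.17%, 7.34% and 17.3%, then 6.15%, 9.97% and 18.4%, then 19.2%, 24.1% and 25.2%. ASNS, which encodes asparagine synthetase, fell by 1.38 already at BKM120 IC30 and by 1.59 at GDC0941 max (limma adjusted p = 1.82e-12 and 3.56e-15). CHAC1, which encodes a glutathione-degrading enzyme, fell by 1.06 and 1.11 (adjusted p = 6.5e-09 and 5.32e-10). SESN2, an ATF4 target too, gave -0.20 and -0.73 in these treatments, and DDIT4, another, 0.05 and -0.15. The transcript of ATF4 rose by 0.28 at BEZ235 IC90 (adjusted p = 1.94e-04) and fell by 0.23 at GDC0941 max.

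Of 8 hypoxia targets other than DDIT4, 3, 4 and 5 fell with BKM120, 3, 4 and 5 with GDC0941 and 5, 4 and 4 with BEZ235, and up to 3 rose. The shares of all genes that fell were 8.17%, 7.34% and 17.3% with BKM120 and 6.15%, 9.97% and 18.4% with GDC0941. With BEZ235 the shares were 19.2%, 24.1% and 25.2%. At BEZ235 max, where 4 fell and 3 rose, 25.2% of all genes fell and 32.7% rose. VEGFA, the angiogenic growth factor gene, fell by 1.18 at BKM120 IC90 (max) and by 0.97 at GDC0941 max (limma adjusted p = 3.18e-06 and 4.55e-05), and PDK1, which encodes a kinase that inhibits pyruvate dehydrogenase, fell by 1.01 at BEZ235 max (adjusted p = 3.89e-09). DDIT4 gave -0.02, -0.15 and -0.23 in the same treatments. Of 4 glucocorticoid targets 3 rose at BEZ235 max, among them KLF9 by 0.46, and FKBP5, a chaperone of the receptor, fell by 0.60 (adjusted p = 0.0033 and 2.63e-07).

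Of 6 p53 targets other than the members, 2 rose at BKM120 IC30 and IC50 and at each GDC0941 level, and 4 fell at BEZ235 max. Over all genes, between 9.81% (GDC0941 IC50) and 25.5% (GDC0941 max) rose in those treatments, and 25.2% fell at BEZ235 max. TP53INP1, which encodes a stress-induced nuclear protein, rose by 0.67 at BKM120 IC30 and by 0.73 at GDC0941 max and fell by 0.49 at BEZ235 max (limma adjusted p = 1.79e-06, 9.12e-08 and 3.79e-05). GDF15, a stress cytokine gene, rose by 0.51 at BKM120 IC30 and fell by 0.82 at BEZ235 max (adjusted p = 0.00283 and 8.6e-07). SESN1, the member most tied to p53, gave 0.29, -0.17 and -0.78 in those 3 treatments.

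The complexes that sestrins and REDD1 act on were counted in the same way. Over all genes, 9.81% (GDC0941 IC50) to 32.7% (BEZ235 max) rose in a treatment and 6.15% to 25.2% fell. No list was tested as a set, so nothing is read from counts of 1 or 2 in lists of 3 to 5 genes. Of 5 GATOR2 genes, 1 was called higher in 6 treatments and 2 at BEZ235 IC90 and max, where 1 was lower; WDR59, a scaffold subunit, rose by 0.29 at BKM120 IC30 and by 0.65 at IC90 (max) (limma adjusted p = 0.0275 and 1.01e-06). Of 3 GATOR1 genes, 2 rose at GDC0941 max, and NPRL2 rose by 0.18 at BKM120 IC30 and by 0.31 at BEZ235 max and fell by 0.21 at BKM120 IC90 (max) (adjusted p = 0.0258, 3.12e-05 and 0.00515). KICSTOR, which tethers GATOR1 to the lysosome, had 1 or 2 of its 3 measured genes lower in each of the 9 treatments, ITFG2 falling by 0.36 at BKM120 IC30 (adjusted p = 0.00458). Among 10 Rag and Ragulator genes, between 1 and 5 rose in each treatment, 5 of them at GDC0941 IC50, GDC0941 max and BEZ235 IC50, where 9.81%, 25.5% and 26.3% of all genes rose, and RRAGD, a Rag GTPase gene, rose by 0.49 at BKM120 IC30 and 0.82 at BEZ235 max (adjusted p = 0.00362 and 6.45e-07).

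TSC2, the RHEB inhibitor through which REDD1 acts, rose at the highest levels: by 0.37 at BKM120 IC90 (max), 0.43 at GDC0941 max and 0.83 at BEZ235 max (limma adjusted p = 0.00256, 4.19e-04 and 2.75e-09). Of 5 TSC and RHEB genes 1 to 3 rose in each treatment, and at GDC0941 max 3 rose and 1 fell, where 25.5% of all genes rose and 18.4% fell. DEPTOR, an inhibitory subunit of mTORC1, rose by 1.23 at GDC0941 IC90, by 1.38 at GDC0941 max and by 1.36 at BEZ235 max (adjusted p = 7.56e-08, 2.26e-09 and 1.3e-09). It is in a list of 10 mTORC1 genes of which 5 fell at BEZ235 max, where 25.2% of all genes fell. CASTOR2, related to the arginine sensor, fell by 1.04 at BEZ235 max (adjusted p = 4.05e-09), 1 of 3 other amino acid sensor genes tested to fall there.

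Of 9 AMPK genes, 2 rose at BKM120 IC90 (max) and 5 at BEZ235 max, where 17.3% and 32.7% of all genes rose, so the first count is near the background. STK11, which encodes the upstream kinase LKB1, rose by 0.79 at BKM120 IC90 (max) and 0.54 at GDC0941 max (limma adjusted p = 3.15e-09 and 3.88e-06). Of 7 partners of the sestrins and REDD1, 2 rose and 2 fell at BEZ235 max, near the shares of all genes (32.7% and 25.2%). SQSTM1, the autophagy receptor that sestrins bind, rose by 0.37 there, and SIAH2, a ubiquitin ligase gene, fell by 0.62 (adjusted p = 2.18e-05 and 2.27e-06).

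**Figure D5:**
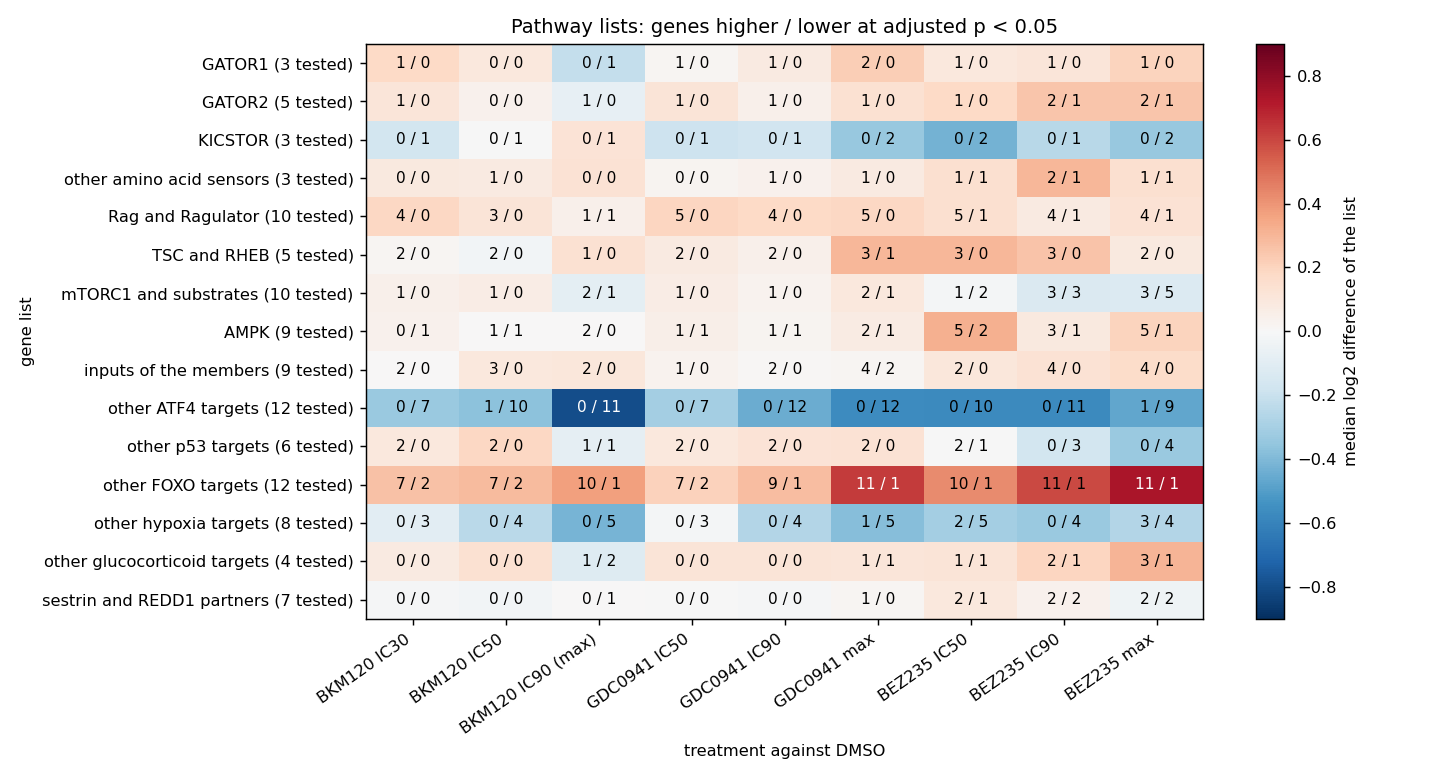
Median log2 difference from DMSO (colour) and number of genes higher / lower at an adjusted p under 0.05 (printed) for 15 lists of genes around the sestrins and REDD1 (rows, with genes tested) at the 9 treatments (columns). The 12 other FOXO targets run from a median of 0.21 at GDC0941 IC50 to 0.73 at BEZ235 max, and the 12 other ATF4 targets from -0.30 at GDC0941 IC50 to -0.80 at BKM120 IC90 (max).

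Likeness to each member was measured as Pearson's r over the 10 group means, which share 1 cell line and 1 set of arrays and include the BEZ235 levels whose SESN3 values entered the choice of members. Among 1478 genes with an SD of at least 0.3 over those means, the most alike SESN3 were ADAM23 (r = 0.991), PIK3R3 (0.989) and STXBP5 (0.980). ARHGAP42 (0.991), SLC11A2 (0.983) and HCCAT5 (0.982) were most alike SESN1, and KITLG (0.992), KCNG4 (0.991) and SKP2 (0.990) most alike SESN2. PIK3R3, which encodes a PI3K regulatory subunit, stood at 0.38 at BKM120 IC50 and -2.59 at BEZ235 max, and SKP2, which encodes a ubiquitin ligase subunit that degrades p27, at -0.44 and -1.75. For DDIT4, whose means had an SD of 0.11, the genes were ARHGDIB (0.972), PRADC1 (0.959) and SDF2L1 (0.952). These genes were picked for their r among all of those, so the values are descriptions.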

How the data were processed

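Biotin-labelled RNA, amplified from 50 ng, was hybridised to 1-colour arrays. The deposited values are linear intensity values made by the authors with MAS5, per the submitters' processing notes (the sources used here give no version), and the 2% trimmed mean of each array was 150. Values were taken as log2(value + 16) with no further normalization. Of the probe sets, 41097 carried 1 symbol, 1801 several and 11777 none. The brightest probe set stood for a gene. Genes under the 40th percentile of mean signal were left out, which kept 11865 of 19775, and limma 3.58.1 (R 4.3.3) was fitted to them (10 group means, 40 arrays, 30 residual degrees of freedom, trended variances). Benjamini-Hochberg adjustment was made within each of 25 comparisons, with calls at an adjusted p under 0.05. The fit was tested on simulated data. The number of arrays, 4 per group, limits the precision, and no 2 arrays were identical. The labels' spelling GCD0941 was read as GDC0941, and BKM120 IC90 (max) was used as its IC90.

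The members and all lists were chosen with earlier results of these data known. The named genes were the 5 members, up to 3 genes of each list with the largest change among those called with groups that did not overlap, counted lists of 5 or fewer, and the 3 genes most correlated with each member. Promoter sequences are from RefSeq (GRCh38.p14). Alternatives covered the added constant, the filter, quantile normalization, probe set averaging, the degraded array, the arrays in the fit, the variance trend, a replicate block and each array left out. In none of 22 comparisons did all 4 correlations between same-numbered replicates exceed 0.1, though 2 of the 4 did for BEZ235 max and for GDC0941 max against DMSO.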

Additional observations from a re-analysis of the deposited data

Results flagged for a closer look

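The DDIT4 signal in BEZ235 IC50 replicate 3 was 2346.6, far above the other 3 arrays of its group (gap over range 0.842, where chance flags about 1 in 20 groups). This is the array whose 3′ to 5′ ratios stood apart, and the part of RNA quality in the value was not tested.

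The step from IC50 to IC90 differed between compounds, by the interaction test in limma's model, in 3 cases. SESN1 gave -0.55 and SESN3 -0.73 for BKM120 minus GDC0941 (adjusted p = 9.85e-04 and 1.49e-05). SESN1 gave -0.36 for BKM120 minus BEZ235 (adjusted p = 0.0243). That last case uses BEZ235 arrays and is not independent of the choice of members. All 3 cases take BKM120 IC90 (max) as the IC90 of BKM120.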

How the results depend on the processing

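Apart from leaving out single arrays, 1000 values were recomputed. Of these, 925 kept their direction and side of the threshold (or, for counts and untested values, moved little), 22 lost the threshold or fell in count, 22 gained it or rose in count, 30 untested values moved beyond the replicate SD and 1 reversed. With the filter at the 60th percentile SESN1 and SESN2 were no longer tested, and the calls were 3 of 6 for BKM120 against DMSO (6 of 12 in the reported fit), 1 of 6 for GDC0941 (3 of 12), 3 of 9 between compounds (14 of 23), 3 of 10 between levels (9 of 22) and 1 of 4 for the interaction (3 of 10). The GDC0941 count was also 1 with a constant of 1 or no filter, 5 with a constant of 64 or with the mean over probe sets, and 6 with 39 arrays. Leaving out single arrays gave 1 to 4. SESN3 with BEZ235 gave -0.33, -0.67 and -0.84 at IC50, IC90 and max with the mean over its probe sets, 6 of them dim, and -1.20 and -1.82 at IC90 and max with a constant of 64. DDIT4 for BEZ235 IC50 against BKM120 IC50 turned to -0.11 (limma adjusted p = 0.016) under quantile normalization, and the cause was not tested; that setting also called DDIT4 at GDC0941 max against DMSO (-0.20, adjusted p = 2.8e-05) and against IC90 and for BEZ235 IC50 against GDC0941 IC50, and the SESN2 interaction of BKM120 and GDC0941 (-0.40, adjusted p = 0.0436). With the replicate block the 5 counts were 6, 2, 14, 9 and 3, and SESN3 at GDC0941 max lost its call (limma adjusted p = 0.0512). The labels give only a shared number. Same-numbered arrays had correlations from -0.307 to 0.305, and in no comparison were all 4 above 0.1. This check cannot exclude a batch shared by some of the replicates. Signals near or below the array median limit SESN2 at the BEZ235 levels, its dimmer probe set in all treated groups and several SESN3 probe sets.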
